A study of Mus musculus with 16 samples.

Results

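The chaperonin containing TCP-1 (CCT, also called TRiC) was followed through its 8 subunit genes, Tcp1, Cct2, Cct3, Cct4, Cct5, Cct6a, Cct7 and Cct8. Members were chosen by gene symbol, and where a gene had several transcript clusters (the array's summary of the probes of a transcript) the brightest over all arrays was to be taken. Each of the 8 genes had 1 cluster, so that this choice by brightness had no effect, and the 8 genes stand among 19938 genes tested. The complex itself was put forward with earlier results of these data in view. The mean level over the 16 arrays ran from 8.52 for Cct3 to 10.95 for Cct2 on the log2 scale, which places the members between the 79.8th and the 98.0th percentile of all genes. These means describe brightness only, since levels of different probes are not comparable between genes.

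The mice were Balb/cJ males, 10 weeks old and of an albino strain. Each of 8 mice gave a sample of neurosensory retina (NSR), which holds photoreceptors, the other retinal neurons and glia, and a sample of the pigment epithelium (RPE), the layer that serves the photoreceptors. In the light groups 4 mice had spent 18 hours under cool white fluorescent light of 10000 lux and were killed 4 hours after its end, and in the control groups 4 mice had stayed on a 12-hour cycle of light and dark. Exposure and the change of light schedule cannot be told apart. Each of the 4 groups had 4 arrays, so that the number of arrays limits the precision. Array medians lay between 6.52 and 6.57 in the NSR and between 6.38 and 6.43 in the RPE.

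CCT is a barrel of stacked rings in the cytosol, each ring holding 1 copy of every subunit. New proteins enter the cavity unfolded and are folded while ATP is bound and split. Actin and tubulin are its classic clients, and proteins built as beta-propellers, such as G protein beta subunits, also depend on it. In photoreceptors CCT works with a phosducin-like protein to assemble the beta and gamma subunits of transducin, the G protein of vision, and mutations of the human CCT2 gene are known to cause an early retinal dystrophy. Within the ring, the subunits encoded by Tcp1, Cct2, Cct4 and Cct5 are known to bind ATP tightly, while those encoded by Cct3, Cct6a, Cct7 and Cct8 bind it weakly.

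The upstream sequences of Cct3, Cct2, Cct5 and Cct8 are shown here because Cct3 and Cct8 had the largest and the smallest light response in the RPE, Cct2 was called in both tissues, and Cct5 differed between the tissues in its response. Each run is the 250 bases before the annotated start, 5′ to 3′ on the gene's strand, from RefSeq's GRCm38.p6 assembly. Capitals mark matches on either strand to the GC box GGGCGG, the CCAAT box, and a pair of facing heat shock half-sites (GAANNTTC or TTCNNGAA).
Cct3, chr3:88296885-88297134, plus strand: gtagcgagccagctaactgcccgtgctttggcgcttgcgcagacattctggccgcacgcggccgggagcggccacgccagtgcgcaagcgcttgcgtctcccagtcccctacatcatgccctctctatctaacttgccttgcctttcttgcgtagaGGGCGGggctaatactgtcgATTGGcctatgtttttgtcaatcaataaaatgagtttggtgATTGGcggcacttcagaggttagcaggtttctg
Cct2, chr10:117063853-117064102, minus strand: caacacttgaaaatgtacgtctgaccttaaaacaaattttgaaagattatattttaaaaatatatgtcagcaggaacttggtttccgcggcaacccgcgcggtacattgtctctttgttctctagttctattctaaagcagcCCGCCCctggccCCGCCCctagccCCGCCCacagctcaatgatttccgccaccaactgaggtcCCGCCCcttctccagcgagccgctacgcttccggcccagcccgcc
Cct5, chr15:31601847-31602096, minus strand: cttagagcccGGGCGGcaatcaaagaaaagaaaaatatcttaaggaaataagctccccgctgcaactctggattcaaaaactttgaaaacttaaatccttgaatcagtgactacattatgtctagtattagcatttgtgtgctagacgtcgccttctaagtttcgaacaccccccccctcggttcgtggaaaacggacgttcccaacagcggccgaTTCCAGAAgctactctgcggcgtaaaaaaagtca
Cct8, chr16:87495870-87496119, minus strand: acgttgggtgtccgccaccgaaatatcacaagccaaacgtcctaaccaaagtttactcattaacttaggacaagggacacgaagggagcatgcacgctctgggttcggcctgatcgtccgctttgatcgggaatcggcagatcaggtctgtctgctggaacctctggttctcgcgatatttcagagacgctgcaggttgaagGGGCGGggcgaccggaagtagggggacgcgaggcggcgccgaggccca
The table used held windows at the annotated start for 7 of the 8 members, all but Cct4. A GC box occurred in all 7, against 32.7% of the 32851 windows of the same length in the table. Cct2 had 4 matches, at 108, 96, 84 and 45 bases before the start, while the single match of Cct5 lay 240 bases before it. A CCAAT box occurred in Tcp1, Cct3, Cct6a and Cct7, 4 of 7, against 33.8% of windows, and the ETS-type core CCGGAA in Tcp1, Cct2, Cct7 and Cct8, against 12.0%. Facing heat shock half-sites occurred in Cct5 alone, 34 bases before its start, against 12.8% of windows. The motif TGANTCA, a looser pattern than the AP-1 site (which has C or G at N), was present in 6.75% of windows. It was also found in Cct5 alone, at 151 bases, where it reads TGAATCA and so is not that site. The E-box CACGTG, the cAMP response motif TGACGTCA and the CArG box were found in none of the 7 and in 6.02%, 1.55% and 1.47% of windows. Both strands were read, some motifs can overlap, and several windows of the table can belong to 1 gene. The members' windows held 45.2% (Cct5) to 66.4% (Cct7) G and C, against a median of 52.4%, and a match is a description of the sequence only.

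**Figure D1:**
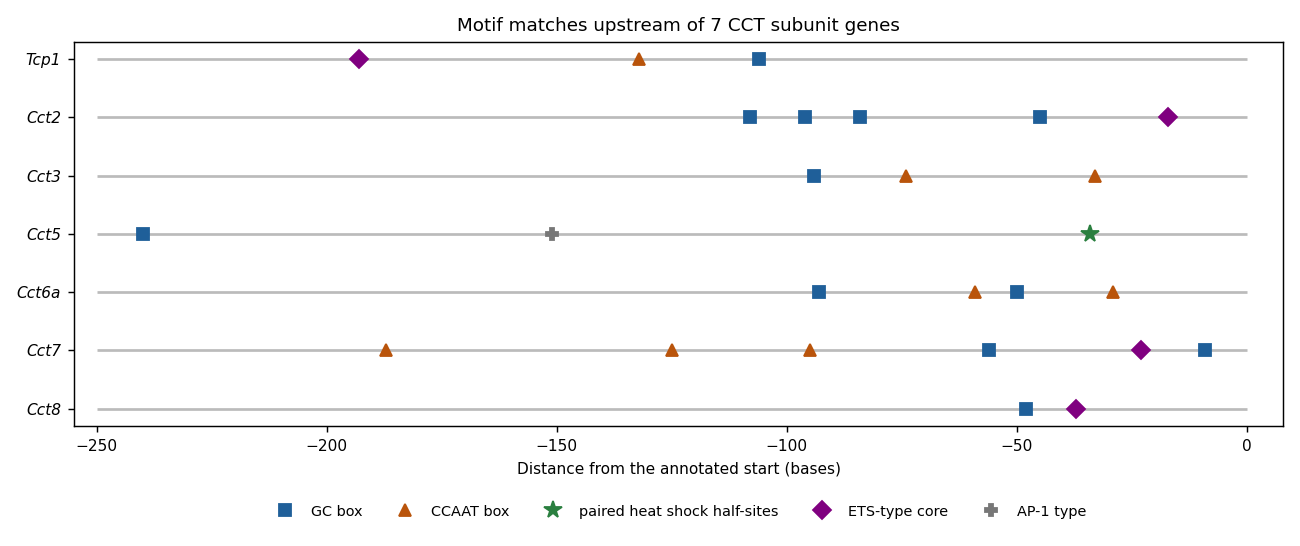
Motif matches in the 250 bases before the annotated start of 7 CCT subunit genes, with the distance from the start in bases on the horizontal axis and 1 line per gene. Every gene carries a GC box (blue square), 4 of 7 a CCAAT box (orange triangle), and Cct5 alone the paired heat shock half-sites (green star). The mark labelled AP-1 type is a match to the looser pattern TGANTCA.

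In the RPE, mRNA of all 8 subunits rose after bright light, by 1.17-fold (Cct8) to 1.45-fold (Cct3), and for each of the 8 the 4 light-exposed arrays lay above the 4 control arrays. Over all genes, 9.08% were called higher (limma, Benjamini-Hochberg adjusted p under 0.05), and 11.3% had every light array above every control array. Among the brightest 25% of genes, where all members lie, 18.6% were called higher, and 8.53% of all genes were called lower, of which 0 were members. The members' median log2 difference was 0.36, with a range of 0.23 to 0.54, against a median of -0.01 over all genes. No member reached 1.5-fold. In these samples fewer cells of a type and less RNA per cell cannot be told apart.

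Among the subunits that bind ATP tightly, Cct2 had log2 levels of 10.85, 10.75, 10.86 and 10.75 in control RPE (replicates 1 to 4), and of 11.19, 11.20, 11.38 and 11.18 after light. The groups did not overlap, and replicate 3 of the light group stood highest. The rise of Cct2 was 1.35-fold, a log2 difference of 0.43 (SE 0.07, 4 arrays a group, limma adjusted p = 0.00165). Cct5 had 10.54, 10.56, 10.59 and 10.44 in control RPE and 10.88, 10.95, 11.00 and 10.84 after light, and rose 1.31-fold (log2 0.39, SE 0.06, adjusted p = 0.00215). Its lowest value in both groups was that of replicate 4, of different mice. Tcp1, the gene that gave the complex its name, had 9.93, 9.93, 9.99 and 9.90 in control RPE and 10.26, 10.29, 10.42 and 10.26 after light. It rose 1.29-fold (log2 0.37, SE 0.06, adjusted p = 0.00227). Cct4 was the tightest group of all in control RPE, at 8.64, 8.63, 8.63 and 8.61, and lay at 8.92, 8.96, 9.07 and 8.95 after light. Its rise was 1.27-fold (log2 0.35, SE 0.06, adjusted p = 0.00237).

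Among the subunits that bind ATP weakly, Cct3 had the largest rise and the widest spread. It had 8.25, 8.32, 8.28 and 8.29 in control RPE, and 8.64, 8.99, 9.002 and 8.65 after light. The light arrays fell into a higher pair, replicates 2 and 3, and a lower pair, replicates 1 and 4, both above every control array. The rise was 1.45-fold (log2 0.54, SE 0.10, adjusted p = 0.0032), with an SD of 0.03 in the control and 0.20 in the light group (n = 4 each). Cct6a, at 10.69, 10.63, 10.61 and 10.57 against 10.90, 10.96, 11.04 and 10.86, rose 1.24-fold (log2 0.31, SE 0.06, adjusted p = 0.00627). Cct7, at 9.69, 9.58, 9.61 and 9.46 against 9.98, 9.77, 9.91 and 9.90, rose 1.24-fold too (log2 0.31, SE 0.07, adjusted p = 0.0143). It was the only member in which replicate 2 was lowest in the light group. Cct8, at 10.49, 10.36, 10.44 and 10.36 against 10.65, 10.63, 10.74 and 10.57, had the smallest rise, 1.17-fold (log2 0.23, SE 0.06, adjusted p = 0.031).

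The light-exposed RPE array of replicate 3 was the highest of its group for 7 of the 8 members. Without it 7 members were still called, with rises of 1.22-fold (Cct6a) to 1.39-fold (Cct3), and Cct8 was not (1.15-fold, adjusted p = 0.0771). The call of Cct8 was also lost without control replicate 2, 3 or 4 or without light replicate 1 or 2 (adjusted p = 0.0579 to 0.0838), and each of the other 7 kept its call when any 1 RPE array was left out. In marker medians this array was the lowest of its group for RPE (11.97, the rest 12.14 to 12.24), rods, cones (6.18, the rest 6.22 to 6.54), Müller glia (8.67, the rest 8.92 to 9.53) and endothelium. It was also the lowest for microglia and macrophages (7.01), fibroblasts and pericytes (7.47), and corneal and ciliary markers (6.54). For neutrophils it was the highest (5.93), and for lens and dividing cells neither. Further arrays stood apart in markers of tissues that could be carried over. The median of 8 lens markers reached 7.81 in RPE control 2, while the remaining control RPE arrays lay between 6.52 and 6.595. The median of 6 corneal and ciliary markers reached 9.98 in RPE light 2, with the rest of its group between 6.54 and 6.70. That of 7 rod markers was 8.40 in RPE light 1 and between 7.11 and 7.40 in the rest of its group. In control RPE it was 8.32, 8.17, 7.65 and 7.59 (replicates 1 to 4), so that controls 1 and 2 lay near RPE light 1. RPE control 1 is kept in the alternative that follows. With these 3 arrays (control 2, light 1 and light 2) left out, 5 of 8 members were called, with rises of 1.31-fold (Cct4) to 1.47-fold (Cct3), and Cct6a, Cct7 and Cct8 were not (1.25-fold, adjusted p = 0.083; 1.25-fold, adjusted p = 0.0932; 1.17-fold, adjusted p = 0.222). Of the 7 measured rod markers 0 were called in the RPE, with a median log2 difference of -0.39. Of 8 RPE markers 4 were called lower, and of 7 markers of dividing cells 0 were called higher and 1 lower. Lower calls were also given to 2 of 6 cone markers, 2 of 6 corneal and ciliary markers and 1 of 8 lens markers. Of 6 endothelial markers 1 was called higher. Müller glia (6 markers) and fibroblasts and pericytes (6 markers) each had 1 called higher and 1 lower. Over all genes 9.08% were called higher and 8.53% lower. Of 8 microglia and macrophage markers 1 was called higher and 1 lower, and of 6 neutrophil markers 2 were called higher. The part of these cells in the members' values was not tested.

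**Figure D2:**
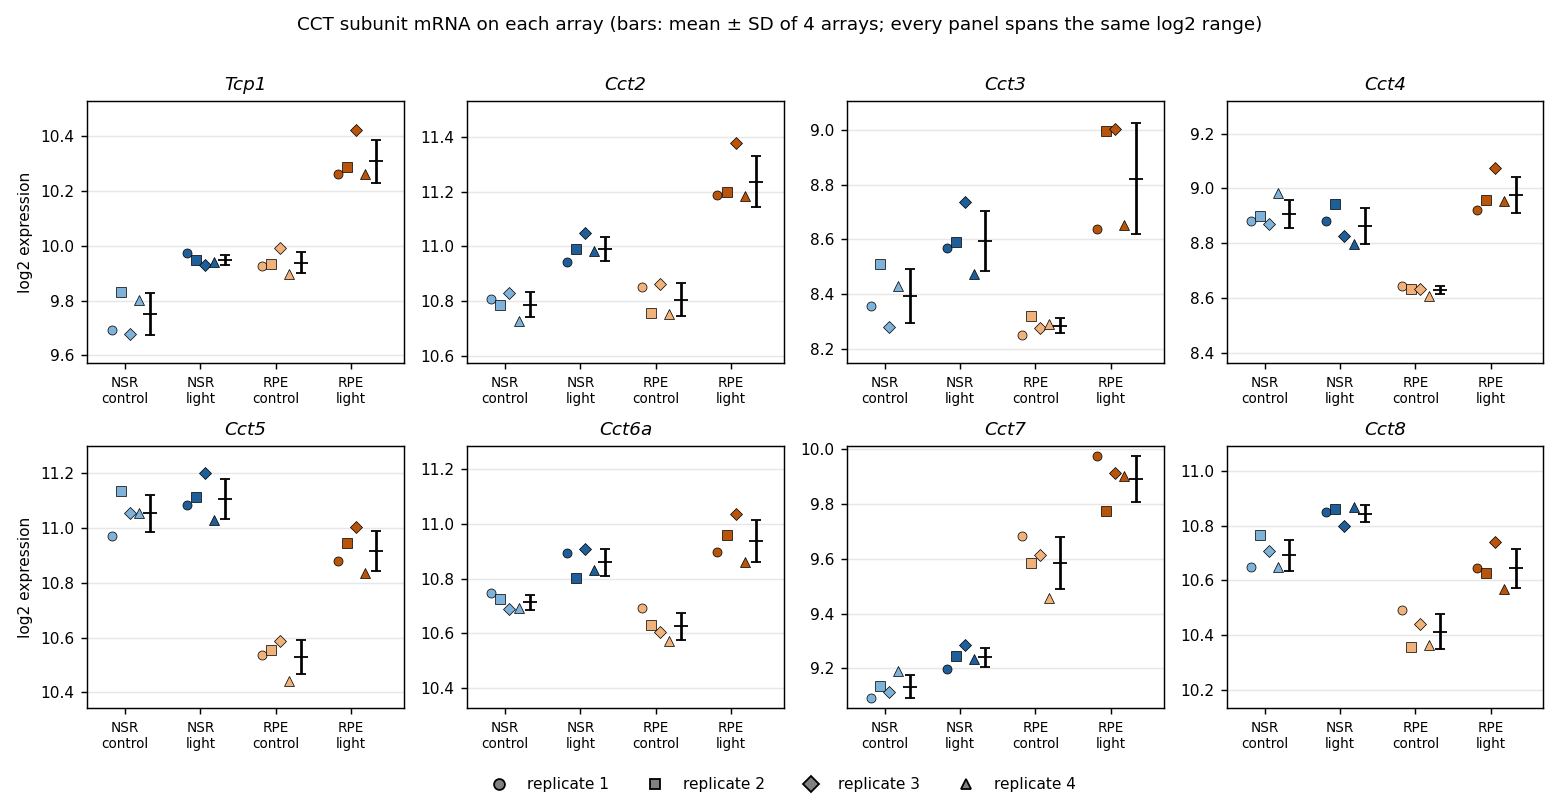
Log2 expression of each CCT subunit on every array, by group, with 1 symbol per replicate and the mean ± SD of the 4 arrays beside the points. Light-exposed RPE lies above control RPE without overlap in all 8 panels, while light-exposed and control NSR overlap in 3 of them (Cct3, Cct4 and Cct5).

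In the NSR the differences were smaller, and 1 of the 8 members, Cct2, was called higher. Of all genes 8.87% were called higher in the NSR, and 16.3% of the brightest 25%, while 6.24% were called lower, among them 0 members. The light arrays lay above the control arrays for 5 members (Tcp1, Cct2, Cct6a, Cct7 and Cct8), against 10.7% of all genes. The median log2 difference of the members was 0.15, with a range of -0.05 to 0.20, against -0.02 over all genes, and 7 of 8 differences were above 0, as were 45.3% of those of all genes. At an unadjusted p under 0.05, 5 of 8 members were higher, against 14.6% of all genes.

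Cct2 had 10.81, 10.79, 10.83 and 10.73 in control NSR and 10.94, 10.99, 11.05 and 10.98 in light-exposed NSR. This rise was 1.15-fold, a log2 difference of 0.20 (SE 0.06, 4 arrays a group, limma adjusted p = 0.0382). The call was lost when any 1 of the 8 NSR arrays was left out (adjusted p = 0.0531 to 0.0997), with log2 differences of 0.18 to 0.22. Tcp1 had 9.69, 9.83, 9.68 and 9.80 in control NSR and 9.97, 9.95, 9.93 and 9.94 after light, a log2 difference of 0.20 (SE 0.06) that missed the threshold (adjusted p = 0.0542). It passed under 6 of the other settings tried, among them arrays centred on their medians (adjusted p = 0.032). Cct3 differed by 0.20 (SE 0.08, adjusted p = 0.108), Cct8 by 0.15 (SE 0.06, adjusted p = 0.118), Cct6a by 0.15 (SE 0.06, adjusted p = 0.126) and Cct7 by 0.11 (SE 0.06, adjusted p = 0.261). None of these 4 passed.

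Cct4 and Cct5 showed the smallest differences in the NSR. Cct4 had 8.88, 8.90, 8.87 and 8.98 in control NSR and 8.88, 8.94, 8.83 and 8.80 in light-exposed NSR, and the groups overlapped. The log2 difference was -0.05 (95% interval -0.18 to 0.09, adjusted p = 0.679). Cct5 had 10.97, 11.14, 11.06 and 11.06 against 11.08, 11.11, 11.20 and 11.03, with overlap and a log2 difference of 0.05 (95% interval -0.09 to 0.20, adjusted p = 0.653). In the same samples all 7 measured rod markers and 5 of 6 cone markers were called lower, and the median of the rod markers lay between 12.10 and 12.17 in control and between 11.49 and 11.76 in light-exposed NSR. Of 6 Müller glia markers 3 were called lower and 1 higher (list medians of 9.37 to 9.48 in control and 8.66 to 8.91 after light), and of 8 RPE markers 3 were called lower. NSR light 3, the highest of its group for 5 of the 8 members, had a cone marker median of 8.59, with the rest of its group at 9.12 to 9.18. The part of these markers in the members' values was not tested.

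The response in the RPE was compared with that in the NSR in 1 fit of all 16 arrays. It was larger in the RPE for all 8 members by sign, and 2 passed the test, against 5.16% of all genes called higher and 8.05% called lower. The members' median difference was 0.21 on the log2 scale, against 0.02 over all genes. Cct4 responded more in the RPE by 0.39 on the log2 scale (SE 0.08, 95% interval 0.23 to 0.56, adjusted p = 0.00213), and Cct5 by 0.34 (SE 0.09, 95% interval 0.15 to 0.52, adjusted p = 0.0138). With the same 3 RPE arrays left out (control 2, light 1 and light 2), the value of Cct5 was 0.35 and no longer passed (adjusted p = 0.0542). For Cct3 the difference of responses was 0.34 (SE 0.12, adjusted p = 0.0874), and 0.34 with the mouse as a block (adjusted p = 0.049998), since NSR and RPE of a mouse are paired. For Cct2 it was 0.23 (95% interval 0.05 to 0.40, adjusted p = 0.087), for Cct7 0.20 (0.02 to 0.38, adjusted p = 0.159), for Tcp1 0.17 (0.00 to 0.34, adjusted p = 0.191) and for Cct6a 0.17 (0.00 to 0.33, adjusted p = 0.193). Cct8 had the smallest, 0.08 (95% interval -0.09 to 0.25, adjusted p = 0.598). Under alternatives, Cct3 also passed without RPE light 1 or without RPE light 4 (limma adjusted p = 0.0378 and 0.0438). Cct2 passed with the trend and robust prior (limma adjusted p = 0.0202).

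**Figure D3:**
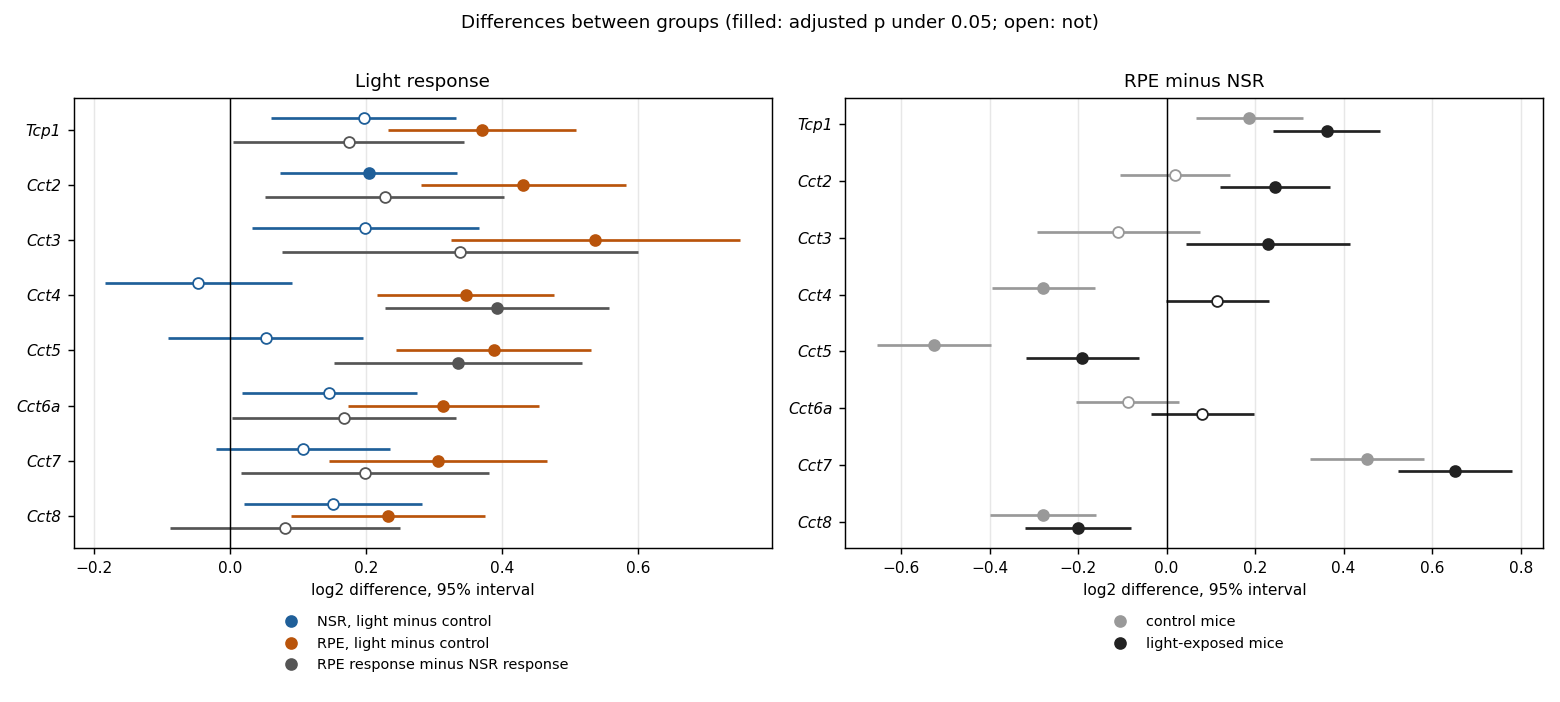
Log2 differences with 95% intervals for each CCT subunit: on the left the light response in NSR (blue), in RPE (orange) and the RPE response minus the NSR response (grey), and on the right RPE minus NSR in control (light grey) and light-exposed mice (black). Filled points passed an adjusted p under 0.05: all 8 for light in the RPE, Cct2 for light in the NSR, and Cct4 and Cct5 for the difference of responses.

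The tissues themselves differed in both directions among the subunits. In control mice, Cct7 was 1.37-fold higher in RPE than in NSR (log2 0.45, SE 0.06, limma adjusted p = 4.1e-06) and Tcp1 1.14-fold higher (log2 0.19, adjusted p = 0.0095). Cct5 was 1.44-fold lower in RPE (log2 -0.53, SE 0.06, adjusted p = 6.24e-07), Cct8 1.21-fold lower (log2 -0.28, adjusted p = 0.000349) and Cct4 1.21-fold lower (log2 -0.28, adjusted p = 0.000285). Cct2 (0.02, 95% interval -0.11 to 0.14), Cct6a (-0.09, -0.20 to 0.03) and Cct3 (-0.11, -0.29 to 0.08) were not called. Tissue calls were common: 30.8% of all genes were called higher and 24.2% lower in control RPE, so that 2 of 8 and 3 of 8 members are close to the background. They also depended on scaling. The share of called genes that were higher in RPE was 56.0%, with 72.2% when arrays were centred on their medians and 66.4% under quantile normalization. The all-gene median of the log2 difference went from 0.04 to 0.19 and 0.15. Cct7 stayed called higher under both (log2 0.59 and 0.32), and Cct5 (-0.38 and -0.68), Cct8 (-0.14 and -0.45) and Cct4 (-0.14 and -0.37) called lower, while Tcp1 was not called after quantile normalization (0.05). Cct2 was called higher when centred (0.16) and lower when quantile normalized (-0.16), and Cct6a was called lower in the second case (-0.25).

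In light-exposed mice 4 members were called higher in RPE than in NSR, Cct7 by 1.57-fold (log2 0.65, SE 0.06, adjusted p = 4.15e-08), Tcp1 by 1.28-fold (log2 0.36), Cct2 by 1.19-fold (log2 0.25) and Cct3 by 1.17-fold (log2 0.23, adjusted p = 0.0327). Cct8 was 1.15-fold lower (log2 -0.20) and Cct5 1.14-fold lower (log2 -0.19). Cct4, lower in RPE in control mice, differed by 0.11 (95% interval 0.00 to 0.23, adjusted p = 0.0855) after light. Of all genes, 34.4% were called higher and 23.6% lower, with 59.3% of calls higher in RPE, and 73.0% or 67.7% after centring or quantile normalization. The call of Cct3 was lost without NSR light replicate 1, 2 or 4 or RPE light replicate 2 or 3 (adjusted p = 0.0573 to 0.118). Those of Cct2 and Cct3 were lost after quantile normalization (0.05 and 0.17), and those of Cct8 and Cct5 after centring (-0.07 and -0.06), which in turn gave calls of higher in RPE for Cct4 (0.24) and Cct6a (0.21). With those 3 RPE arrays left out, Cct3 and Cct5 were not called (adjusted p = 0.0651 and 0.0669).

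Taking the 4 groups in order of level, 6 members were highest in light-exposed RPE and 2, Cct5 and Cct8, in light-exposed NSR. Control RPE was the lowest group for 5 members and control NSR for Tcp1, Cct2 and Cct7. These orders are those of the deposited values, and the share of all genes with each order was not counted. After centring, control RPE lay above control NSR for Cct3 and Cct6a (log2 0.033 and 0.054). After quantile normalization, control RPE lay below control NSR for Cct2 (-0.16), and light-exposed RPE below light-exposed NSR for Cct6a (-0.11). For Cct7 no neighbouring groups overlapped in the order control NSR, light-exposed NSR, control RPE and light-exposed RPE (9.13 ± 0.04, 9.24 ± 0.04, 9.59 ± 0.10 and 9.89 ± 0.08, SD, n = 4). For Tcp1 control RPE and light-exposed NSR overlapped in the middle of the order (9.94 ± 0.04 and 9.95 ± 0.02), and for Cct2 control NSR and control RPE did at its low end. For Cct5 and Cct8 light-exposed RPE overlapped control NSR, above control RPE and below the mean of light-exposed NSR. For Cct4 light-exposed NSR, control NSR and light-exposed RPE each overlapped their neighbour (8.86 ± 0.07, 8.91 ± 0.05 and 8.98 ± 0.07), above control RPE. For Cct3 every neighbouring pair of groups overlapped, and for Cct6a both the lower and the upper pair did.

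The variation of the subunits from array to array was compared within groups. After the mean of each group was subtracted, 27 of the 28 pairs of members had a positive correlation over the 16 arrays, with a median r of 0.41 and a highest r of 0.73 for Cct3 and Cct5. Over all pairs of every 20th gene with all genes the median was 0.01, and 51.4% of pairs were positive. Within the RPE arrays 27 of 28 pairs were positive, with a median of 0.69, and within the NSR arrays 17 of 28, with a median of 0.20 and a lowest r of -0.66. The all-gene medians within the tissues were 0.02 and 0.01. The points share arrays and total RNA. Cct7 followed the others least (r = 0.17 with the mean of the other members after group means were subtracted) and Cct5 most (0.81). Over the 16 arrays as they stand, the genes most like the mean of the scaled members were Riok3, a kinase of ribosome maturation (r = 0.97), Pak1ip1, a nucleolar protein (0.96), the tubulin gene Tubb2b (0.96), the matrix protein gene Tnc (0.96), the pyrophosphatase gene Ppa1 (0.96) and Rpsa, a protein of the small ribosomal subunit (0.96). Each of these 6 was called higher in light-exposed RPE, Tnc by 4.92-fold and Ppa1 by 1.58-fold. Group differences were kept when these genes were chosen, so that their rise in the RPE follows largely from the choice. Tnc and Ppa1 were not called in the NSR (limma adjusted p = 0.15 and 0.124). After group means were subtracted, the closest were Pak1ip1 (0.88), Peg10 (0.88), Smim3 (0.87), Erc1 (0.87), Ubash3b (0.86) and Ccdc85c (0.85), and Peg10, Ubash3b and Ccdc85c were not called in the RPE (log2 0.01, 0.41 and 0.02).

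Genes of the cochaperones that bring clients to CCT were called in both directions. The shares of all genes called higher and lower were 9.08% and 8.53% in the RPE, and 8.87% and 6.24% in the NSR. Among the brightest 25% of genes, 18.6% were called higher in the RPE and 16.3% in the NSR. Prefoldin is a jellyfish-shaped complex that hands new actin and tubulin to the ring. Of its 6 subunit genes 2 rose in the RPE, Pfdn4 by 1.32-fold (adjusted p = 0.00771) and Pfdn2 by 1.22-fold (adjusted p = 0.00593), and 0 fell, with a median of 0.09. With the 3 RPE arrays above left out (control 2, light 1 and light 2), neither was called (adjusted p = 0.123 and 0.0579). In the NSR 0 rose and 2 fell, Pfdn5 by 0.32 and Vbp1 by 0.26 on the log2 scale (1.25-fold and 1.20-fold lower), with a median of -0.02. The call of Vbp1 was lost after centring (adjusted p = 0.0628), under a block for replicate numbers (the replicate block, 0.0671), and without any 1 of NSR control 1, 2 and 3 and NSR light 1, 2 and 3 (0.0581 to 0.0996). Of 4 phosducin-like cochaperones, Pdcl3 and Txndc9 rose in the RPE (1.38-fold and 1.21-fold), and Txndc9 rose in the NSR too (1.29-fold, adjusted p = 0.0427), where its groups overlapped. In the RPE the call of Txndc9 was lost in 10 of the 17 settings other than the 1.5-fold minimum, among them the fit of all 16 arrays (adjusted p = 0.0621), the replicate block (0.052) and the mean of its clusters (0.086), and without any 1 of control 1, 2 and 3 and light 1, 2 and 4 (0.0549 to 0.0948). In the NSR it was lost after quantile normalization (0.0622) and without any 1 of control 1 and 4 and light 2, 3 and 4 (0.0681 to 0.119). Pdcl, the member that assembles G protein beta subunits, had log2 differences of -0.10 in the NSR (adjusted p = 0.32) and 0.07 in the RPE (adjusted p = 0.704). Of 6 tubulin cofactors, which act on tubulin after CCT, 1 rose in each tissue and 0 fell. It was Tbcb in both, by 1.38-fold in the RPE and 1.21-fold in the NSR, where the call was lost without any 1 of control 1, 2 and 4 and light 2 and 3 (adjusted p = 0.0598 to 0.0836).

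Among the clients, 12 of 17 listed actin and tubulin genes had a cluster of their own, and whether their probes also capture near-identical family members is not given in the sources used here. For the counts of clients, the shares of all genes called higher and lower were 9.08% and 8.53% (RPE), and 8.87% and 6.24% (NSR). In the RPE 6 of 12 rose and 0 fell, with a median of 0.21. The largest rises were those of the beta-tubulin genes Tubb6 (3.96-fold, adjusted p = 1.71e-05), Tubb2b (3.87-fold) and Tubb2a (2.22-fold). In the NSR 5 of 12 rose and 0 fell, with a median of 0.28, led by Tubb6 (2.20-fold), Tubb2b (1.90-fold) and Actb, the gene of cytoplasmic beta-actin (1.43-fold). Actb had a log2 difference of -0.18 in the RPE (adjusted p = 0.0637). Of 12 beta-propeller genes 1 rose and 5 fell in the NSR, with a median of -0.13, and 2 rose and 2 fell in the RPE, with a median of -0.07. Gnb3, the G protein beta subunit of cones and some bipolar cells, rose in both tissues (2.42-fold in the NSR and 2.37-fold in the RPE), and Gnb2 rose in the RPE (1.35-fold). The 5 that fell in the NSR were Gnb5, the partner of the photoreceptor regulator RGS9 (log2 -0.70), Gnb1, the beta subunit of rod transducin (-0.39), and Bbs9, Bbs7 and Bbs2 of the BBSome, a cargo coat of cilia (-0.62, -0.60 and -0.39). In the RPE Bbs2 and Bbs9 fell (-0.37 and -0.36), and Bbs2 was not called without RPE control 4 (-0.32, adjusted p = 0.0508). Gnb1, Bbs7, Bbs2 in the NSR and Bbs9 in the RPE were chosen after their values were seen. Of 6 other reported clients, Stat3, a transcription factor of cytokine signalling, rose 3.90-fold in the NSR and 2.75-fold in the RPE, and the deacetylase gene Hdac3 rose 1.38-fold in the RPE.

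No relative of CCT was called for light in either tissue. Cct6b, the paralogue of Cct6a known from testis, had log2 differences of -0.19 in the NSR (adjusted p = 0.288) and -0.10 in the RPE (adjusted p = 0.509). The BBSome assembly proteins of chaperonin type, Mkks, Bbs10 and Bbs12, were not called in either tissue (log2 -0.12, -0.08 and -0.03 in the RPE, and -0.31, 0.04 and 0.33 in the NSR). Bbs12 in the NSR (adjusted p = 0.0646) was called higher under 5 other settings, namely centring (0.044), the trend and robust prior (0.033), array weights (0.0253), the replicate block (0.0434) and without NSR light 3 (0.45, adjusted p = 0.00262). Neither gene of the mitochondrial chaperonin, Hspd1 and Hspe1, was called (0.12 and 0.03 in the RPE, 0.12 and 0.12 in the NSR). Both were called in the NSR with the trend and robust prior (adjusted p = 0.0215 and 0.0269). As fitted here, 0 of 6 genes of these 2 lists rose, which is close to the background. The background over all genes was 9.08% called higher and 8.53% lower in the RPE, and 8.87% and 6.24% in the NSR. Of 9 measured heat shock factors and targets 1 rose and 3 fell in the RPE, with a median of -0.28. Bag3, a partner of Hsp70, rose 1.33-fold, while the chaperone genes Dnaja1, Hsp90aa1 and Hspa8 fell by 0.34, 0.33 and 0.28 on the log2 scale, Hspa8 being named after its value was seen. With RPE control 2, light 1 and light 2 left out, Bag3 (adjusted p = 0.0658) and Hsp90aa1 (0.05004) were not called. In the NSR 3 of 9 rose and 1 fell, with a median of 0.07, with Bag3 up 1.95-fold, Dnajb1 up 1.47-fold and Hsf2 down (log2 -0.40). A difference between these lists and the CCT genes was not tested.

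**Figure D4:**
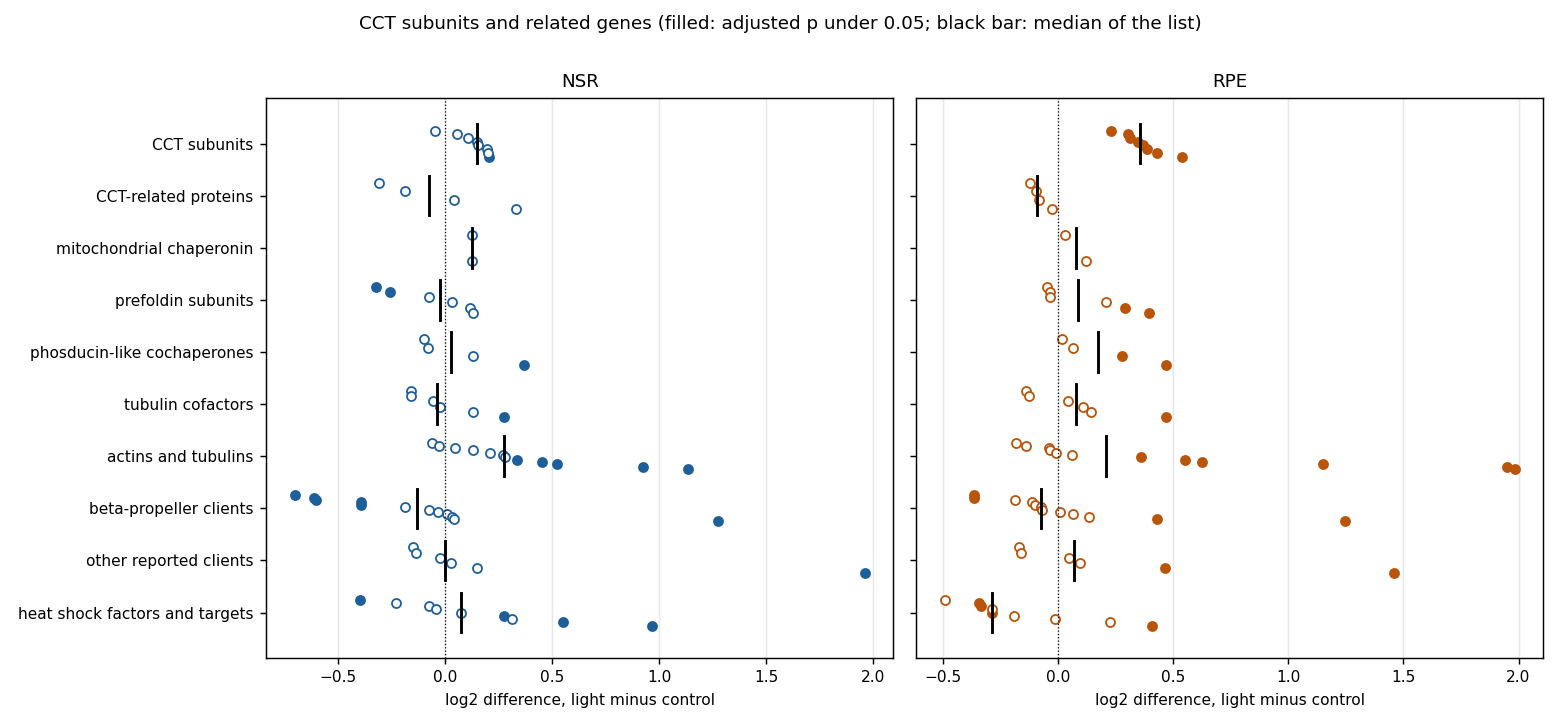
Log2 difference between light and control for each gene of the CCT and related lists, in NSR (left, blue) and RPE (right, orange). Filled points passed an adjusted p under 0.05 and the black bar is the median of a list. In the RPE all 8 CCT subunits lie between 0.23 and 0.54 and are filled, whereas the heat shock list has a median of -0.28.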

How the data were processed

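Each of the 16 samples was hybridised to an Affymetrix Mouse Gene 1.0 ST array. For 35556 transcript clusters the authors deposited log2 values, for which the submitters' processing notes name RMA and Partek 6.6. The log2 scale was read from the values (2.20 to 13.84). Background and detection measures were not used here, so that a gene's height above background is unknown. Symbols came from the platform annotation, and 19938 genes with a cluster of a single symbol were kept, each by its brightest cluster.

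Groups were compared with limma 3.58.1 in R 4.3.3 (lmFit and eBayes), within each tissue for light and in a fit of 4 group means for the tissues and the difference of responses. A call was an adjusted p under 0.05 (Benjamini-Hochberg, all genes together). The fits were checked on values drawn with known changes. Nothing in the labels names a batch. Within a tissue, p-values measure the spread between mice. The fit of 4 group means treated NSR and RPE of a mouse as separate arrays, and only the alternative with the mouse as a block used their pairing. The rest was done in Python 3.11.15, using pandas 2.3.3, with figures from matplotlib 3.10.9. The members, gene lists and tests were chosen with earlier results of these data known. Named genes were the 8 members, up to 3 called genes with the largest change per list and tissue (1 where none was called, all in lists of up to 4), and the 6 most like the members.

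NSR and RPE samples carry a mouse identifier in the labels, the same for both tissues of a mouse, and so come from the same animal. Within a mouse, deviations of the 2 tissues from their group means had correlations of -0.011 to 0.053 (8 mice). Other scaling, filters, priors, array weights, blocks, left-out arrays and a 1.5-fold minimum were run as alternatives.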

Additional observations from a re-analysis of the deposited data

Results flagged for a closer look

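In light-exposed RPE, replicate 3 stood apart from the other 3 arrays for 2 of the 8 subunits. Its gap to the nearest array was 0.839 of the group's range for Tcp1 (10.42 against 10.26 to 10.29) and 0.937 for Cct2 (11.38 against 11.18 to 11.20), above the critical value of 0.829 for groups of 4. Of 32 groups of a member these 2 exceeded it, and chance alone gives about 1 in 20. Without this array Tcp1 rose 1.26-fold and Cct2 1.31-fold in the RPE (limma adjusted p = 0.00568 and 0.00365).

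The light response differed between the tissues by the test of the difference itself for Cct4, by 0.39 on the log2 scale, and for Cct5, by 0.34, both larger in the RPE.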

How the results depend on the processing

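The rise of Tcp1, Cct2, Cct3, Cct4 and Cct5 in the RPE kept its direction and call under every alternative run except the 1.5-fold minimum. With that minimum 0 members were called for light in either tissue, 0 for the difference of responses, 0 higher and 0 lower between the tissues in control mice, and 1 higher and 0 lower in light-exposed mice, while the counts over all genes were 820 (NSR), 1043 (RPE), 1272 (difference), 5785 and 5665. With those 3 RPE arrays left out that stood apart in markers (control 2, light 1, light 2), the RPE had 2056 calls over all genes and 5 members, the difference of responses 1 member, and 1 member was lower in RPE after light. In the NSR the count of members was 2 after centring, quantile normalization, the filter on dim genes, array weights or the fit of all 16 arrays, 4 with the trend and robust prior (Tcp1, Cct2, Cct6a and Cct8), 0 with any array left out and 0 with the replicate number as a block.

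The replicate block gave 2728 calls over all genes for light in the NSR and 2984 in the RPE, where 7 members were called and Cct8 was not (adjusted p = 0.0635). The numbers join different mice there, and same-numbered arrays did not deviate together (r of -0.017 to 0.066). With the mouse as a block for the paired tissues 3 members passed for the difference of responses, and no other call of a member changed.

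Between the tissues of control mice, quantile normalization gave 1 member higher and 5 lower, and Cct2 turned to -0.16. Centring turned Cct3 to 0.033 and Cct6a to 0.054. Without 1 array Cct2 ranged from -0.0022 to 0.0357. In light-exposed mice quantile normalization gave 2 members higher and turned Cct6a to -0.11, and centring gave 0 lower. Among uncalled genes, leaving out 1 array gave log2 ranges across 0 for Bbs10 in the NSR (-0.0086 to 0.10) and, in the RPE, Mkks (-0.17 to 0.0025), Bbs12 (-0.0973 to 0.0329) and Pdcl2 (-0.0022 to 0.0487). Centring moves the difference between the tissues by the same amount for every gene, because the array medians were lower in the RPE than in the NSR. The cause of the other changes was not tested. With 4 arrays a group, the SE of a member's light response was 0.06 to 0.10 on the log2 scale.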
